A study of Homo sapiens with 8 samples.

Results

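The small nucleolar RNA host genes (SNHG genes) and GAS5 were followed in SK-UT-1 cells exposed to the BRD9/7 inhibitor TP-472. Members were the rows of the count table whose name is SNHG followed by a number, or GAS5. This gave 29 genes of 60282 listed, and 25 of them passed the filter of more than 1 CPM (counts per 1000000 counts of a library) in at least 4 of the 8 libraries and were tested among 14073 genes. SK-UT-1 is an established human uterine leiomyosarcoma line, and TP-472 binds the bromodomain of BRD9, a subunit of a BAF chromatin remodelling complex. Total RNA was sequenced from 4 vehicle (DMSO) and 4 TP-472 replicates (5 µM), collected after 48 h, all from the same line, with no genotype difference between the groups. The study's methods speak of biological replicates in general, but the labels do not say that these replicates came from separate cultures, and p-values measure only the spread between these libraries.

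A snoRNA host gene carries small nucleolar RNAs (snoRNAs) in its introns. When the host transcript is spliced, the snoRNA is trimmed out of the removed intron and packed with proteins, whereas the spliced host RNA is exported. C/D box snoRNAs guide ribose methylation and H/ACA box snoRNAs guide pseudouridylation of ribosomal RNA, and the related scaRNAs act on spliceosomal RNAs in Cajal bodies. Most spliced SNHG RNAs hold no long reading frame, and GAS5 RNA is a classic target of nonsense-mediated decay (NMD), the pathway that removes transcripts on which ribosomes stop early. GAS5 and several other hosts start with a 5′ terminal oligopyrimidine (TOP) tract, as ribosomal protein mRNAs do, and GAS5 was named for its accumulation in growth-arrested cells.

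RefSeq places 143 snoRNAs or scaRNAs inside 27 of the 29 members on either strand, 83 of them in SNHG14 alone. The small RNAs below were chosen because their hosts carry the results that follow. Letters are the DNA of GRCh38 (T for U), 5′ to 3′. For C/D RNAs capitals mark the C box core and the D box, and for H/ACA RNAs and SCARNA15 they mark the first match to ANANNA in the middle of the RNA and the last ACA.
SNORD44 in GAS5, 61 bases, chr1:173865968-173866028, minus strand: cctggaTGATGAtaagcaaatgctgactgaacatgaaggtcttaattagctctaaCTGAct
SNORD80 in GAS5, 71 bases, chr1:173864833-173864903, minus strand: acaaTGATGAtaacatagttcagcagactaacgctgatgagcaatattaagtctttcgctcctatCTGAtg
SNORD25 in SNHG1, 69 bases, chr11:62855564-62855632, minus strand: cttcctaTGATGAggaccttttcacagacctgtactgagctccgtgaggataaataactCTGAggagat
SNORD27 in SNHG1, 72 bases, chr11:62855012-62855083, minus strand: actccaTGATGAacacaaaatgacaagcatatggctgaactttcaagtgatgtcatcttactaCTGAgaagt
SNORD7 in SNHG30, 97 bases, chr17:35573657-35573753, plus strand: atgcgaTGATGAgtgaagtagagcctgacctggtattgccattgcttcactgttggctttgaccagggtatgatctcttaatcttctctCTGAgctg
SCARNA15 in SNHG21, 127 bases, chr15:82755945-82756071, plus strand: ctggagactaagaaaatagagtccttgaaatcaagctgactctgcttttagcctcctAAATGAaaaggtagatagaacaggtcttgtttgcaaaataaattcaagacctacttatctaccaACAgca
SNORA17A in SNHG7, 133 bases, chr9:136726747-136726879, minus strand: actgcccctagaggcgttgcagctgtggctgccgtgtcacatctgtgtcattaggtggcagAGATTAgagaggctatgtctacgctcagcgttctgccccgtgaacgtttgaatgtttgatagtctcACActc
SNORA73A in SNHG3, 206 bases, chr1:28507366-28507571, plus strand: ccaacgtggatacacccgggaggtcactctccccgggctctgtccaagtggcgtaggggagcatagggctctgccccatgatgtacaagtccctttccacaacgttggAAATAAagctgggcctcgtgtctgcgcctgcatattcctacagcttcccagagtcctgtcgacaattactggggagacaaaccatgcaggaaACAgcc
SNORA73B in SNHG3, 204 bases, chr1:28508559-28508762, plus strand: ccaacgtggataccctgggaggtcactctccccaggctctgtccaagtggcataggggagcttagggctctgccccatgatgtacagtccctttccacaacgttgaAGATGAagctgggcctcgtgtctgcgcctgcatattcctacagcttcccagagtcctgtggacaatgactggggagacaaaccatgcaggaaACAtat

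The libraries held 32574672 to 38545464 estimated counts each, and levels below are CPM after TMM scaling. Vehicle replicate 3 stood apart from the other vehicle libraries, with a first principal component score of -94.0 against -36.4 in vehicle replicate 1, -13.5 in replicate 2 and -14.5 in replicate 4. It had the lowest vehicle level in 18 of the 25 tested members, with a median of 0.732 times the mean of the other vehicle libraries. Values without it are given for all tested members together, in the plot of changes, and beside the single genes and lists whose calls depend on it. The 3 abundant small RNAs RN7SK, RN7SL1 and RN7SL2 held 5.29% of its counts, 8.01%, 11.3% and 11.1% of vehicle replicates 1, 2 and 4, and 10.2%, 13.6%, 13.4% and 8.97% of TP-472 replicates 1 to 4. The mitochondrial share of counts was 0.285% to 0.424% in the vehicle libraries and 0.199% to 0.282% in the TP-472 libraries. The part of these shares in the results was not tested.

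TP-472 raised 16 of the 25 tested members and lowered none, at an adjusted p under 0.05 with a fold change over 1.5 in edgeR's quasi-likelihood test with Benjamini-Hochberg adjustment over all genes tested. Among all genes tested, 12.0% were called higher and 14.9% lower. The median log2 fold change was 0.82 over the 25 members and -0.03 over all genes tested. In 18 members every TP-472 library exceeded every vehicle library, a pattern seen in 23.8% of all genes tested, and no member showed the opposite pattern, seen in 21.6%. Without vehicle replicate 3, 15 members were called higher, all of them among the 16, and none lower, with log2 fold changes from 0.61 in SNHG32 to 1.80 in SNHG21, with 12.0% of all genes called higher and 13.1% lower, and the median over members was 0.69. By the adjusted p alone, 17 members passed with all libraries, each with a higher level in TP-472, beside 17.2% of all genes tested, and 20 passed without vehicle replicate 3, beside 28.6%. In bulk RNA a higher share of cells with the transcript and more transcript per cell cannot be told apart.

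**Figure D1:**
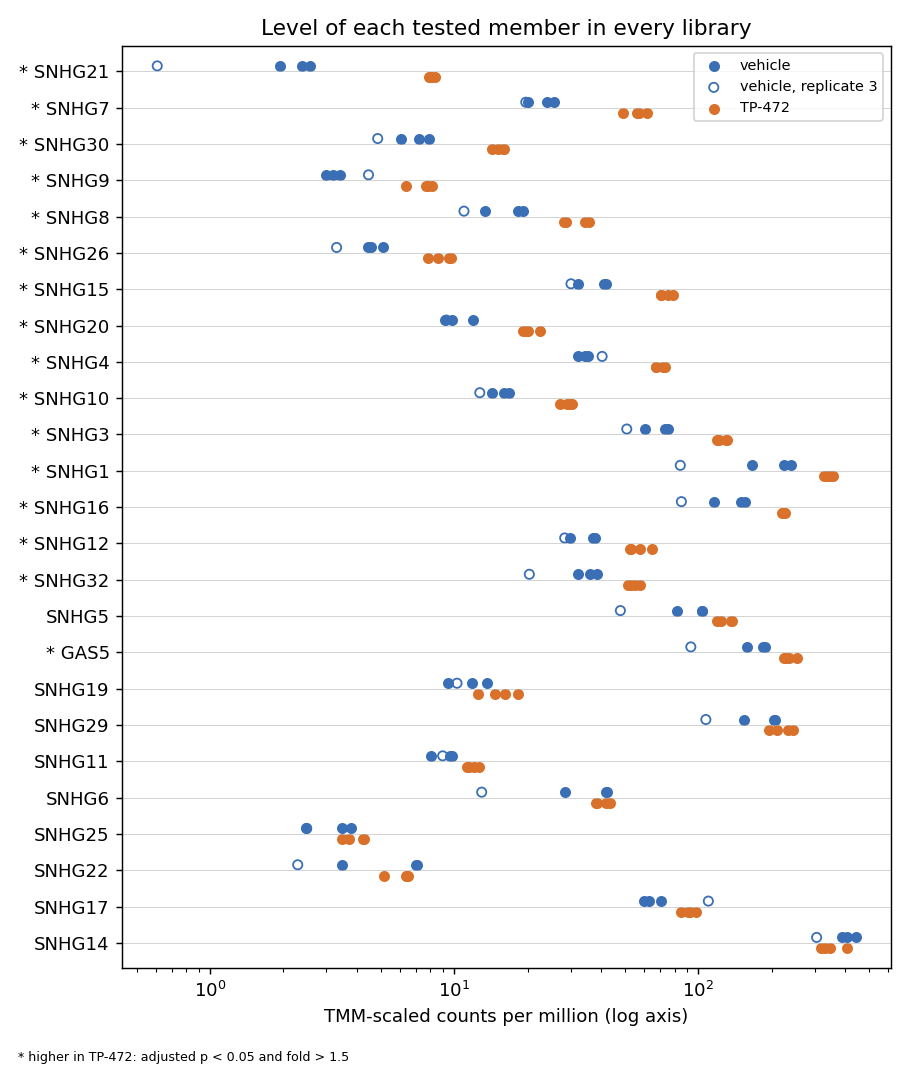
TMM-scaled CPM (log axis) of the 25 tested members in each vehicle library (blue, replicate 3 open) and each TP-472 library (orange); an asterisk marks members called higher. Orange points lie to the right of all blue points in 18 members, and vehicle replicate 3 is often the lowest blue point.

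GAS5 stood at 158, 185, 93.2 and 187 CPM in vehicle replicates 1 to 4 and at 225, 254, 236 and 229 CPM in TP-472 replicates 1 to 4. The groups did not overlap, although vehicle replicate 3 was far below the other vehicle libraries. Its mean rose from 156 ± 43.8 to 236 ± 12.9 CPM (SD over 4 libraries a group), and the log2 fold change of 0.60 ± 0.20 (SE) lay just inside both limits (edgeR adjusted p = 0.0457). Without vehicle replicate 3 the log2 fold change was 0.41 with an edgeR adjusted p of 0.00159, so that the fold limit and not the p limit was missed. The call was also lost without vehicle replicate 1 and without any 1 TP-472 replicate, with edgeR adjusted p up to 0.11, and in 14 of 21 alternatives in all. GAS5 (ENSG00000234741.8) lies on the minus strand of chromosome 1 at 173863900 to 173868882 in GRCh38.

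The largest change was that of SNHG21, host of SCARNA15, shown above, at 82750564 to 82757206 on the plus strand of chromosome 15. SNHG21 measured 1.94, 2.56, 0.608 and 2.39 CPM in vehicle and 8.02, 8.31, 7.94 and 7.93 CPM in TP-472 replicates 1 to 4. The TP-472 libraries were close together and all far above the vehicle libraries, and the log2 fold change was 2.10 ± 0.36 (edgeR adjusted p = 0.00277) with all libraries and 1.80 without vehicle replicate 3. SNHG21 was the only tested member not over 1 CPM in all libraries. It exceeded 1 CPM in 3 vehicle and 4 TP-472 libraries, so that it passed the filter through the TP-472 group, where it is high, and its count among the called members supports nothing further. Its exons overlap those of AC105339.2 on the same strand, whose own log2 fold change was 1.21 ± 0.29, so that estimated counts could be split between these genes.

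Members hosting H/ACA snoRNAs were the next group, and 6 of 8 were called. SNHG7, which hosts SNORA17A and SNORA17B at 136721366 to 136728184 on the minus strand of chromosome 9, measured 20.1, 24.0, 19.7 and 25.7 CPM in vehicle and 56.3, 61.4, 57.0 and 49.1 CPM in TP-472. Its lowest TP-472 library was well above its highest vehicle library, and the log2 fold change of 1.32 ± 0.13 (edgeR adjusted p = 0.000216) had the smallest adjusted p among the members. SNHG9, host of SNORA78, had 2.99, 3.42, 4.46 and 3.18 CPM in vehicle and 8.13, 7.84, 7.69 and 6.37 CPM in TP-472, with a log2 fold change of 1.10 ± 0.17. Here vehicle replicate 3 was the highest vehicle library, and the change without it was 1.23.

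SNHG8, host of SNORA24, had 13.4, 18.3, 11.0 and 19.2 CPM in vehicle and 28.3, 35.7, 34.4 and 28.8 CPM in TP-472, a log2 fold change of 1.04 ± 0.19. SNHG15, host of SNORA9, had 32.3, 41.7, 30.1 and 41.3 CPM in vehicle and 70.2, 79.1, 75.4 and 70.2 CPM in TP-472, a log2 fold change of 1.02 ± 0.13. Both members thus about doubled, with no TP-472 library near the vehicle range. SNHG4, which hosts SNORA74A, had 32.2, 34.4, 40.4 and 35.3 CPM in vehicle and 71.9, 67.2, 66.9 and 73.2 CPM in TP-472, a log2 fold change of 0.97 ± 0.10. It had vehicle replicate 3 as its highest vehicle library, and exons of MATR3, a nuclear matrix protein gene on the same strand, overlap it. MATR3 itself measured a log2 fold change of 0.02 ± 0.12.

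SNHG3, host of SNORA73A and SNORA73B, had 60.5, 72.9, 51.0 and 75.5 CPM in vehicle and 129, 131, 122 and 119.6 CPM in TP-472, a log2 fold change of 0.95 ± 0.14. SNHG3 shares exons with RCC1, the nucleotide exchange factor of the Ran GTPase, on the same strand. RCC1 had a log2 fold change of 0.56 ± 0.11. SNHG11 and SNHG17, the other 2 hosts of H/ACA snoRNAs, were not called. SNHG11 ranged from 8.01 to 9.84 CPM in vehicle and from 11.3 to 12.7 CPM in TP-472 (log2 fold change 0.38 ± 0.12, edgeR adjusted p = 0.034, under the fold limit).

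SNHG17, the host of SNORA71A to SNORA71D, had 70.2, 60.0, 110.0 and 63.1 CPM in vehicle and 90.9, 92.7, 84.7 and 98.3 CPM in TP-472. Vehicle replicate 3 was above every TP-472 library and the other vehicle libraries below all of them. The log2 fold change was 0.27 ± 0.19 (edgeR adjusted p = 0.276) with all libraries and 0.50 without vehicle replicate 3 (edgeR adjusted p = 0.000421), under the fold limit in both.

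Among the 4 hosts of scaRNAs, SNHG21, SNHG20 and SNHG10 were called. SNHG20, host of SCARNA16, had 9.20, 9.80, 9.29 and 12.0 CPM in vehicle and 19.8, 22.4, 20.005 and 19.2 CPM in TP-472, a log2 fold change of 1.01 ± 0.13. Its exons overlap SEC14L1, a lipid-binding protein gene on the same strand that went the other way, with a log2 fold change of -0.67 ± 0.21 (edgeR adjusted p = 0.0369). SNHG10, host of SCARNA13, had 14.4, 16.0, 12.7 and 16.7 CPM in vehicle and 28.9, 29.9, 30.5 and 27.1 CPM in TP-472, a log2 fold change of 0.96 ± 0.12. In both the groups were far apart and the spread within groups was small. SNHG22, host of SCARNA17, ranged from 2.29 to 7.01 CPM in vehicle and from 5.15 to 6.49 CPM in TP-472 and was not called (log2 fold change 0.31 ± 0.34, or 0.06 without vehicle replicate 3).

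Of the 10 members with only C/D box snoRNAs, 5 were called. SNHG30, host of SNORD7, had 6.07, 7.90, 4.86 and 7.19 CPM in vehicle and 15.9, 15.2, 16.0 and 14.3 CPM in TP-472, a log2 fold change of 1.24 ± 0.16. SNHG26, host of SNORD93, had 4.43, 5.12, 3.30 and 4.55 CPM in vehicle and 8.57, 7.81, 9.54 and 9.75 CPM in TP-472, a log2 fold change of 1.03 ± 0.17. Neither gene had a TP-472 library within the vehicle range.

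SNHG1, at 62851988 to 62855914 on the minus strand of chromosome 11, has 8 C/D snoRNAs including SNORD25 and SNORD27. It had 166, 224, 84.4 and 240.4 CPM in vehicle and 327, 347, 356 and 336 CPM in TP-472. The vehicle libraries were widely spread and vehicle replicate 3 was the lowest, whereas the TP-472 libraries were close together. The log2 fold change was 0.93 ± 0.28 (edgeR adjusted p = 0.0294) and 0.69 without vehicle replicate 3 (edgeR adjusted p = 0.000733). The call of SNHG1 was lost without vehicle replicate 1 and without any 1 TP-472 replicate, with edgeR adjusted p up to 0.0756. It was also lost in the test against a 1.5-fold change and with limma's sample quality weights, where the log2 fold change was 0.57. SNHG16, host of SNORD1A, SNORD1B and SNORD1C, had 116, 149.7, 85.3 and 156 CPM in vehicle and 222, 223, 228 and 219.5 CPM in TP-472, a log2 fold change of 0.82 ± 0.18. SNHG32, host of SNORD48 and SNORD52, had 32.3, 36.1, 20.3 and 38.4 CPM in vehicle and 52.8, 57.5, 55.3 and 51.8 CPM in TP-472, a log2 fold change of 0.77 ± 0.18. In both, vehicle replicate 3 was again lowest, and the changes without it were 0.66 and 0.61. Both calls were lost with limma's sample quality weights, where the changes were 0.565 and 0.562, and in the test against a 1.5-fold change. Exons of SNHG32 overlap AL671762.1 on the same strand, for which no value is given here.

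SNHG5, host of SNORD50A and SNORD50B, lay just outside the p limit. It had 81.9, 103, 48.0 and 103 CPM in vehicle and 124, 137, 136 and 119.6 CPM in TP-472, so that the groups did not overlap. The log2 fold change was 0.62 ± 0.22 (edgeR adjusted p = 0.0542), and without vehicle replicate 3 it was 0.42 (edgeR adjusted p = 0.00395). It was called without vehicle replicate 2 or vehicle replicate 4. With all libraries it was also called by limma without sample weights (0.68) and under total count scaling (0.60). SNHG29, host of SNORD49A, SNORD49B and SNORD65, had 154, 207, 107 and 205 CPM in vehicle and 210.2, 245, 234 and 194 CPM in TP-472. Its groups overlapped, and its log2 fold change of 0.39 ± 0.20 had an edgeR adjusted p of 0.156 and was 0.22 without vehicle replicate 3. SNHG6, host of SNORD87, ranged from 13.0 to 42.5 CPM in vehicle and from 38.3 to 43.5 CPM in TP-472 (log2 fold change 0.37 ± 0.31, or 0.10 without vehicle replicate 3), and SNHG19, host of SNORD60, from 9.42 to 13.6 and from 12.6 to 18.3 CPM (0.45 ± 0.16, edgeR adjusted p = 0.0577).

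SNHG14, the long transcript of the imprinted Prader-Willi region that carries the SNORD115 and SNORD116 clusters, had a negative log2 fold change, the only tested member that did with all libraries in edgeR (SNHG6 and SNHG22 were slightly below 0 with limma's sample weights). SNHG14 had 441, 388, 305 and 405 CPM in vehicle and 345, 330.4, 319.7 and 408 CPM in TP-472. The ranges overlapped widely, and the log2 fold change was -0.13 ± 0.14 (edgeR adjusted p = 0.472), or -0.23 without vehicle replicate 3 (edgeR adjusted p = 0.0546). Over the alternatives the log2 fold change ran from -0.25 to -0.07. SNHG14 passed the p limit in at least 1 of them, but never the fold limit. Its exons overlap those of SNRPN, the spliceosomal protein gene of the same region (0.37 ± 0.16, edgeR adjusted p = 0.0938), on the same strand.

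Of the 3 members with snoRNAs of both classes, GAS5 and SNHG12 were called. SNHG12, host of SNORA16A, SNORA44, SNORA61 and SNORD99, had 29.9, 37.1, 28.4 and 37.9 CPM in vehicle and 52.5, 64.8, 57.7 and 53.3 CPM in TP-472, a log2 fold change of 0.78 ± 0.13 with no overlap. SNHG25, host of SNORD104 and SNORA50C, ranged from 2.47 to 3.79 CPM in vehicle and from 3.46 to 4.28 CPM in TP-472 and was not called (0.36 ± 0.19).

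Within each class of hosted RNA the members were spread widely. The median log2 fold change was 1.00 over the 8 hosts of H/ACA snoRNAs, 0.99 over the 4 hosts of scaRNAs, 0.70 over the 10 hosts of C/D snoRNAs and 0.60 over the 3 mixed hosts, with single members from 0.27 to 1.32 in the first and from -0.13 to 1.24 in the third of these groups. Calls were made at all abundances, in 5 of 9 members with a mean under 20 CPM, 8 of 10 between 20 and 100 CPM and 3 of 6 above 100 CPM. Per kilobase of annotated exon, the vehicle mean level was highest in SNHG1 (47.6 CPM per kb), SNHG29 (44.8) and GAS5 (42.9), whereas SNHG14, first by CPM, reached 8.88 CPM per kb. The summed CPM of all members was 1499, 1701, 1107 and 1755 in vehicle and 2169, 2302, 2237 and 2206 in TP-472 replicates 1 to 4.

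**Figure D2:**
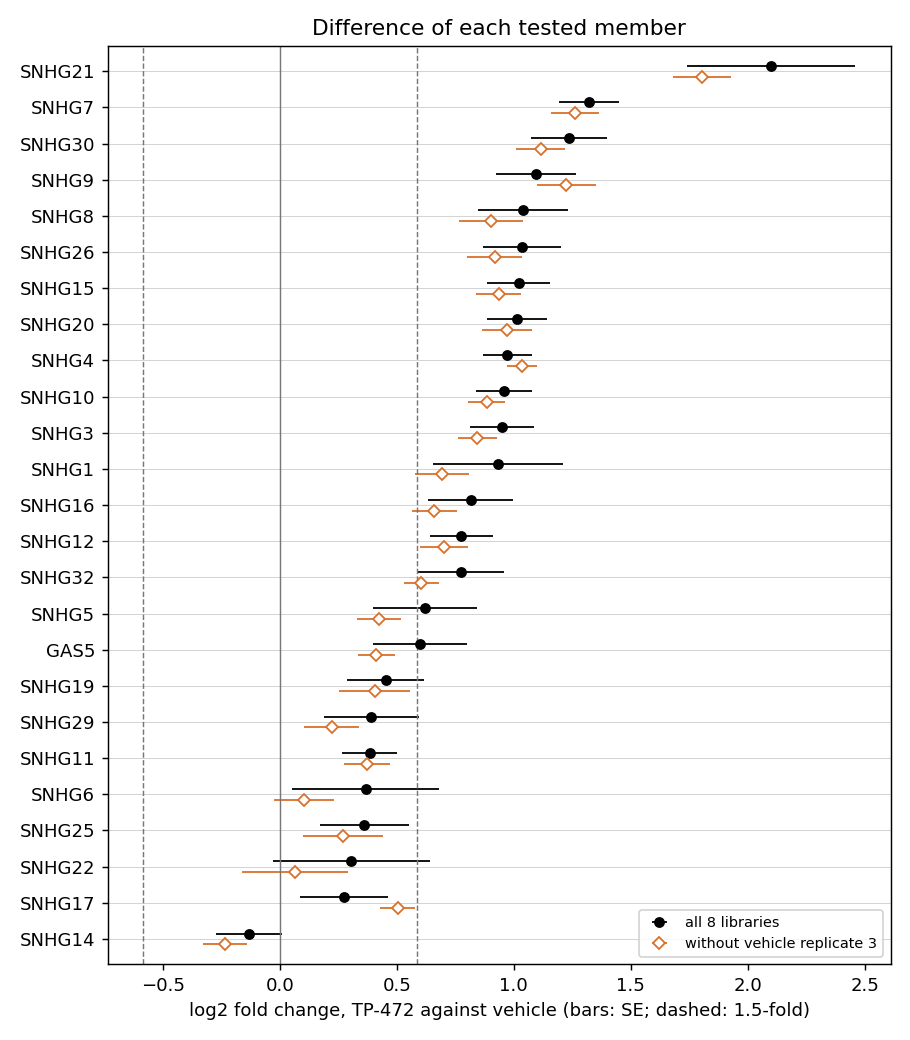
Log2 fold change, TP-472 against vehicle, of the 25 tested members with all 8 libraries (black circles) and without vehicle replicate 3 (open diamonds); bars are SE and dashed lines mark 1.5-fold. Leaving out that replicate moved GAS5 from 0.60 to 0.41 and SNHG17 from 0.27 to 0.50, and 15 members stayed past the right dashed line with a call.

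The 4 members below the filter had few or no counts. SNHG28 had 4, 0, 8 and 4 counts in vehicle and 0, 6, 5 and 5 in TP-472 (exact two-sided permutation p = 1), and SNHG31 had 0, 2, 5 and 0 against 4, 5, 2 and 1 (exact permutation p = 0.514). SNHG18 had 1 count in each of 2 TP-472 libraries and 0 elsewhere, and SNHG27 had 0 in all libraries. The highest of them in any library reached 0.246 CPM before scaling, so that no difference was detectable at this depth.

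Small RNAs processed from member introns had rows of their own in the count table. Of the 143 RNAs inside members, 119 had a row and 7 had at least 20 counts in every library, a limit set after the counts were seen. By edgeR's quasi-likelihood test 0 of these 7 were called, 1 had an unadjusted p under 0.05, and DESeq2 called 0 of them, beside 26.9% of all genes tested called in either direction by edgeR. SNORA73A, printed above, had 5430, 7375, 4135 and 7174 counts in vehicle and 5295, 7738, 6237 and 4736 counts in TP-472 (log2 fold change -0.07 ± 0.23), while SNHG3 rose. SNORA73B, a close copy of SNORA73A that may share its reads, had 5989, 6560, 5672 and 6119 counts in vehicle and 5178, 7085, 5921 and 5026 counts in TP-472 (-0.13 ± 0.15). Their ranges overlapped between the groups.

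The count of each small RNA was then divided by that of its host within the same library, which needs no scaling. The mean log2 ratio of SNORA73A to SNHG3 went from 1.38 ± 0.13 in vehicle to 0.35 ± 0.33 in TP-472 (SD, n = 4; difference -1.03; exact two-sided permutation p = 0.0286, the smallest that 4 against 4 allows; 0.0333 adjusted over the 7 pairs). Of the 7 ratios, 6 were lower in every TP-472 library than in every vehicle library, all at these p-values. A ratio falls by as much as its host rises where the small RNA row is level. None of the 7 small RNA rows was called. These p-values thus mostly restate the hosts' change, are not independent of it and add no separate support. The 5 hosts of these 6 small RNAs were all called, and no share over other pairs was at hand to set beside the count. The differences were -0.61 for SCARNA13 to SNHG10, -0.84 for SCARNA16 to SNHG20, -1.12 for SNORA73B to SNHG3, -1.39 for SNORA74A to SNHG4 and -1.46 for SNORA17B to SNHG7. For SNORA71A to SNHG17 the difference was -0.73 and the groups overlapped (exact permutation p = 0.0571). Without vehicle replicate 3 the differences ran from -1.43 to -0.57, and the smallest p that 3 against 4 allows is 0.0571.

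These ratios carry limits. Reads from an unspliced host can be assigned to either row, and short RNAs are recovered poorly in such libraries, so that mature and host-borne copies cannot be told apart. Which library chemistry was used is not settled by the sources, and neither is its recovery of RNAs without a poly(A) tail. The low rows SNORA17B and SNORA71A were highest in vehicle replicate 3, with 173 and 208 counts against 49 to 71 and 67 to 91 in the other vehicle libraries.

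**Figure D3:**
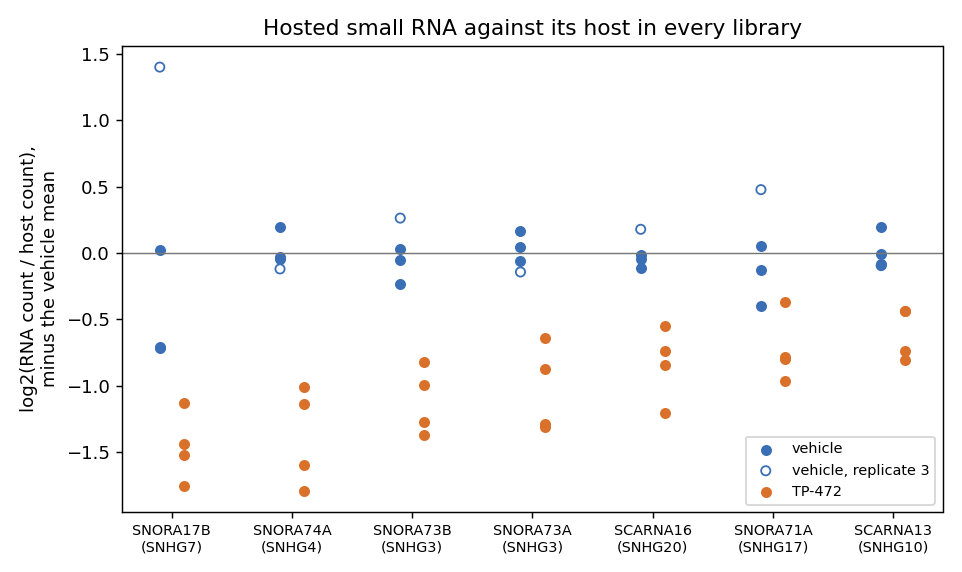
Log2 ratio of small RNA count to host count in each library, minus the vehicle mean, for the 7 small RNAs with at least 20 counts in every library (host in parentheses; vehicle blue, replicate 3 open; TP-472 orange). Orange points lie below all blue points in 6 of the 7 pairs.

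The annotated first bases of the members were read for a TOP-like start, defined here as a C at the RefSeq start followed without a gap by at least 4 further pyrimidines on the transcribed strand. Of 21 tested members with a RefSeq window (GRCh38.p14), 5 began this way, or 23.8%, beside 4.07% of all 35116 windows and 68.3% of 63 windows of ribosomal protein genes. Each is shown with 20 bases before and 20 bases from the start, the run in capitals.
SNHG4, chr5:139274081-139274120, plus strand: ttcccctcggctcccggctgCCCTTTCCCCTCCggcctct
SNHG12, chr1:28581854-28581893, minus strand: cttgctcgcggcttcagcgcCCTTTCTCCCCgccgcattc
SNHG32, chr6:31834896-31834935, plus strand: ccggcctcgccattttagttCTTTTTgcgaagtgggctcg
SNHG5, chr6:85678714-85678753, minus strand: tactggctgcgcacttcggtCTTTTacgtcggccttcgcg
SNHG19, chr16:2155339-2155378, minus strand: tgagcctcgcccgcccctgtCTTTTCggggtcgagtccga
Of these 5, SNHG4, SNHG12 and SNHG32 were called, beside 11 of 16 members without such a run, and the median log2 fold changes were 0.77 and 0.94. GAS5 did not match at its RefSeq start, which lies upstream of the start in the annotation used for its coordinates. The E-box letters CACGTG, which read the same on both strands, were found in the windows of SNHG7 and SNHG30, 9.52% of the 21, beside 7.26% of all windows of 300 bases. No window was at hand for SNHG6, SNHG9, SNHG15 and SNHG25.

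Genes that share the architecture, the translation-linked decay or the protein partners of the members were compared through fixed lists, whose counts stand beside the 12.0% of all genes called higher and the 14.9% called lower. Of 3 tested other noncoding hosts, 2 were called higher and none lower. EPB41L4A-AS1, host of SNORA13, rose by 1.24 ± 0.18 on the log2 scale, from 7.42 ± 1.75 to 17.6 ± 0.909 CPM, and DANCR by 0.92 ± 0.20, from 17.7 ± 4.71 to 33.4 ± 4.23 CPM. ZFAS1, the most abundant of these, measured 0.53 ± 0.15 with an edgeR adjusted p of 0.0207 and stayed under the fold limit. MEG8 was not tested.

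Protein-coding hosts were counted by function. None of 23 ribosomal protein genes that host snoRNAs was called (median log2 fold change 0.16, or 0.08 without vehicle replicate 3), whereas 9 of 29 other coding hosts were called higher and none lower (median 0.37, or 0.25 without it). The largest called changes were those of WDR43, a factor of ribosomal RNA processing (1.15 ± 0.20), NOP58, a C/D snoRNP protein (1.05 ± 0.19), HSPA8, a cytosolic chaperone (1.01 ± 0.18), and DKC1, the pseudouridine synthase of H/ACA particles (1.00 ± 0.20). HSPA8 was also the most abundant coding host over both groups, although EEF2 was above it in vehicle. It stood at 1847 ± 425 CPM in vehicle and 3724 ± 259.8 CPM in TP-472. Without vehicle replicate 3, 6 of the 9 calls were left, since TCP1, CCT6A and HSPA9 fell under the fold limit, and PPAN was called higher (0.68) and PRRC2A lower (-0.62). With all libraries PPAN measured 0.30 and PRRC2A -1.44 ± 0.50, the latter just outside the p limit (edgeR adjusted p = 0.0508). These 5 genes were named after their values were seen.

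Ribosomal protein mRNAs, which carry a TOP tract like several members, gave 0 calls of 79. Of these, 4 had an edgeR adjusted p under 0.05 below the fold limit, and the list median was 0.26, or 0.11 without vehicle replicate 3. Their most abundant gene, RPLP0, measured 0.02 ± 0.12. Of 18 translation factors, NPM1, a nucleolar chaperone, was called (0.73 ± 0.25, edgeR adjusted p = 0.0496) and was not called without vehicle replicate 3. EEF1A1, the most abundant of them, measured 0.21 ± 0.22, or 0.03 without vehicle replicate 3.

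Genes of proteins that bind snoRNAs were mostly higher as well. Of 8 core snoRNP genes, 6 were called higher and none lower (median 0.83), and 5 were called without vehicle replicate 3. NOP58 rose from 93.5 ± 25.4 to 194 ± 6.53 CPM, DKC1 from 70.7 ± 19.5 to 141 ± 3.49 CPM, GAR1 from 11.0 ± 2.75 to 21.7 ± 0.367 CPM and NOP56, the most abundant, from 203 ± 25.01 to 361 ± 12.0 CPM. NOP58 and NOP56 belong to C/D particles, and DKC1 and GAR1 to H/ACA particles. DKC1, NOP56 and NOP58 host snoRNAs themselves and stand in both lists.

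Of 14 tested snoRNP assembly factors, 4 were called higher and none lower (median 0.42), namely NUFIP1 (0.86 ± 0.12), ZNHIT6 (0.68 ± 0.14), ZNHIT3 (0.66 ± 0.15) and SHQ1 (0.61 ± 0.15). Without vehicle replicate 3 only NUFIP1 of these 4 was still called (0.80). The most abundant over both groups, NOLC1, which was below RUVBL2 in vehicle, measured 0.56 ± 0.11 under the fold limit with all libraries and was called without vehicle replicate 3 (0.64). NOPCHAP1 had no row of that name.

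Of 21 NMD factors, 4 were called higher and none lower (median 0.30), beside 12.0% and 14.9% of all genes tested. They were ETF1, the release factor that ends translation (0.93 ± 0.20), the exon junction proteins RBM8A (0.68 ± 0.11) and EIF4A3 (0.67 ± 0.09), and UPF3B, which links the exon junction to decay (0.66 ± 0.18). Without vehicle replicate 3, UPF3B was not called (0.52), whereas DHX34, an RNA helicase named after its value was seen, was called (0.79, against 0.30 with all libraries). SMG1, the kinase of the pathway and its most abundant gene, measured -0.02 ± 0.19.

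Abundant nuclear noncoding RNAs that are not snoRNA hosts gave no call in the members' direction. NEAT1, the scaffold of paraspeckles, fell by 0.89 on the log2 scale (SE 0.24), and KCNQ1OT1, the antisense RNA of an imprinted region, fell by 0.81 (SE 0.25). Both were still called lower without vehicle replicate 3. MALAT1 measured -0.05 ± 0.24.

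**Figure D4:**
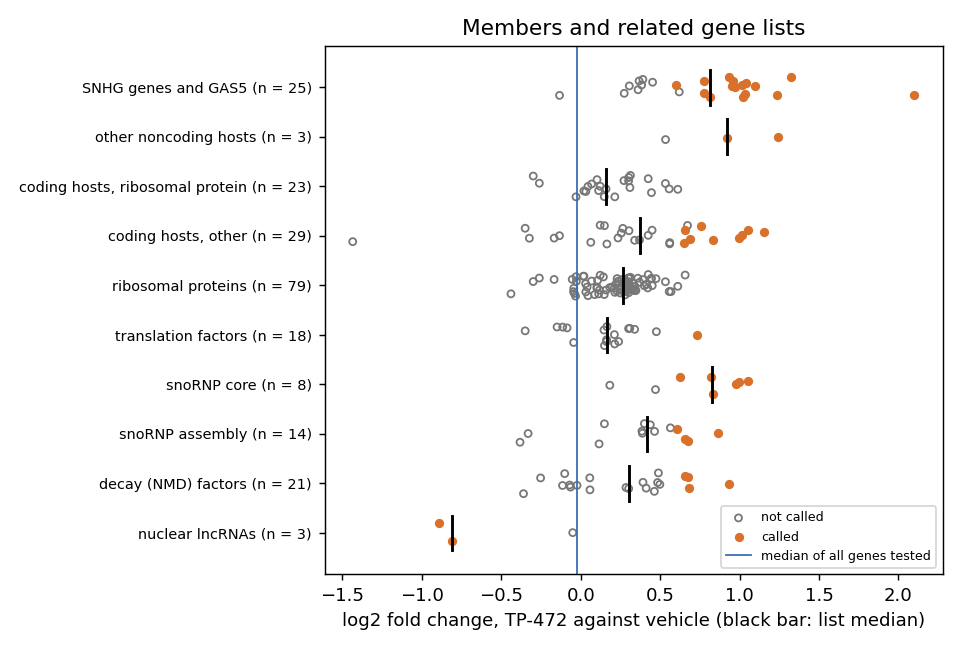
Log2 fold change, TP-472 against vehicle, of each tested member and each tested gene of the fixed lists; called genes are filled orange, black bars are list medians and the blue line is the median of all genes tested (-0.03). The list medians include 0.82 for the members, 0.83 for the snoRNP core genes and 0.26 for the ribosomal protein genes.

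The labelled origin of the line was checked with its markers. Of 9 smooth muscle markers, 7 were tested. CALD1, the most abundant, stood at 199.6 ± 15.3 CPM in vehicle and 191.6 ± 5.65 CPM in TP-472. The defining markers MYH11 and MYOCD had at most 10 and 8 counts in any library, and DES was low at 3.25 ± 0.203 CPM in vehicle and 0.63 ± 0.169 CPM in TP-472. LMOD1 stood at 2.53 ± 1.04 and 0.702 ± 0.172 CPM. DES and LMOD1 passed the filter only through the vehicle libraries and were not tested without vehicle replicate 3, so that no call is read from them. TAGLN was called lower with all libraries (-0.67 ± 0.12) and without vehicle replicate 3 (-0.65). ACTA2 measured -0.55 ± 0.10 with all libraries (edgeR adjusted p = 0.00426), under the fold limit, and was called lower without that replicate (-0.60). SMTN (-0.68 ± 0.34) and CNN1 (0.13 ± 0.25) were not called. The summed level of the list was 439, 479, 524 and 481 CPM in vehicle and 379.8, 378, 373 and 371 CPM in TP-472 replicates 1 to 4. Of 6 epithelial markers KRT18 rose (1.08 ± 0.14) and KRT19 fell by 0.85 on the log2 scale, both also without vehicle replicate 3. KRT8 was not called (0.52 ± 0.22), and EPCAM, CDH1 and CLDN4 were below the filter. Blood and endothelial markers were at or near 0 except CD68, which measured 0.47 ± 0.14; CD3E had no count and PTPRC at most 1. The part of these markers in the members' change was not tested.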

How the data were processed

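Per the labels and the methods of the study, total RNA of SK-UT-1 cells was sequenced. The authors quantified transcripts with Salmon 1.4.0 and summed them to genes with tximport and GENCODE 34 (build GRCh38), so that the deposited values are estimated counts, not normalized, and depend on how Salmon divided reads among overlapping genes. The labels name a TruSeq RNA kit, whereas the study's methods describe a stranded total RNA protocol, and the sources used here do not settle which applied. If strand was not kept, reads of members annotated as antisense could not be told from those of their partners.

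Counts were rounded. Genes over 1 CPM in at least 4 libraries were kept, TMM-scaled and tested with edgeR 4.0.16 (R 4.3.3) without covariates; p-values were adjusted over 14073 genes. A call needed adjusted p under 0.05 and fold over 1.5. The test was tested on simulated data. Replicate libraries differed by more than sampling noise (lowest mean chi-square 11.2 a gene). Alternatives used DESeq2 1.42.0 and limma 3.58.1, other scalings, filters and limits, a GC offset, a replicate block and leaving out each library. Coordinates and exon lengths come from GENCODE 29 (GRCh38), and the assignment of snoRNAs to members and the start windows from RefSeq. The printed bounds of SNORD25, SNORA73A and SNORA73B differ slightly from RefSeq, which gives 67, 207 and 205 bases.

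Named are all members, with library values for GAS5, each called member and the 4 most abundant uncalled, and from each list at most 4 called genes of largest change and its most abundant gene. Outside this rule, some further genes are named, among them markers, untested or overlapping genes and genes whose call changed without vehicle replicate 3. Members and lists were chosen with earlier results of these data known. The ratios of small RNA to host and the limit of 20 counts were added after the data were seen.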

Additional observations from a re-analysis of the deposited data

Results flagged for a closer look

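One library stood far from the others of its group, among 50 member and group combinations examined, of which chance would mark about 1 in 20. In SNHG22, TP-472 replicate 4 measured 5.15 CPM, whereas the other TP-472 libraries lay between 6.37 and 6.49 CPM.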

How the results depend on the processing

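Of 25 tested members, 16 kept their side of the call limits in all 21 alternatives run on single members, and 9 changed it in at least 1. These 16 are not the 16 called members. GAS5, SNHG1, SNHG8, SNHG12, SNHG16 and SNHG32 lost their call in at least 1 alternative, SNHG8 and SNHG12 only in the test against a 1.5-fold change. SNHG5, SNHG11 and SNHG19 gained a call in at least 1. The count of members called higher was 10 when edgeR tested against a 1.5-fold change, 12 with limma's sample quality weights and 14 to 17 when 1 library was left out, and no member was called lower in any setting. The median log2 fold change over members was 0.69 to 0.92 with 1 library left out. It was 0.57, under the fold limit, with limma's sample quality weights. With limma's sample weights SNHG6 turned to -0.0042 and SNHG22 to -0.091, neither called, and SNORA17B turned to 0.28 without vehicle replicate 3; the cause was not tested. Over all genes, 529 were called higher and 594 lower by the test against a 1.5-fold change, 1061 and 1083 at an adjusted p under 0.01, 2678 higher and 2897 lower by DESeq2, 1165 to 1785 higher and 1321 to 2325 lower with 1 library left out (1345 lower without TP-472 replicate 2 and 1321 without TP-472 replicate 3). Over the 7 lists of hosts, ribosome, snoRNP and NMD genes, 23 distinct genes were called higher and 0 lower. These lists tested 3, 52, 79, 18, 8, 14 and 21 genes, some of them shared. The count stands beside 12.0% of all genes called higher and 14.9% lower, and no rise of the lists together is read from it. It was 2 higher by the test against a 1.5-fold change, 39 with no fold limit and 16 to 27 with 1 library left out. A single lower call, 1 gene (PRRC2A), appeared with no filter, filterByExpr, a GC offset and DESeq2, and 0 to 1 such calls with 1 library left out. With the GC offset 17 members were called, SNHG11 and SNHG19 added and GAS5 lost. Replicate numbers did not pair the libraries (correlations of same-numbered deviations -0.06, 0.12, -0.17 and -0.18); with the replicate block 15 members were called higher (16 with the GC offset as well), 0 lower, 1500 and 1555 genes higher and lower over all, and the member median was 0.85. Depth was similar in all libraries, and 4 members were too low to test.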
